A study of Mus musculus with 18 samples.

Results

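Genes of DNA replication and of mitosis were followed in the thymocytes of adult and old mice, to ask whether their mRNA levels differed between 6, 16 and 24 months of age and from those at 1 month. The genes were chosen by name and not by a cut on their values, though with earlier results of these data known. Of 41 listed genes, 33 were the stated gene of at least 1 probe, on 38 of the 41174 probes of the array. They comprised 19 genes that act at the start or in the course of S phase and 14 that act in mitosis. The counts and medians given for members cover these 33 genes, each through its brightest probe, and all 33 of these probes passed the filter on dim signal that left 37442 probes. The second probes of Rrm1 and Pola1 did not pass it. A further 8 listed genes could be reached only through the description of a probe, and they are described apart from the counts.

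Thymocytes, which are T cells in development, came from C57BL/6 mice aged 6, 16 and 24 months, with 3 mice per age, and from 1 month old C57BL/6 mice as the reference. No genetic change or treatment is given for any group. Each of 9 Agilent 2-colour arrays carried the RNA of 1 older mouse in Cy3 and 1 month thymocyte RNA in Cy5. The design text calls the 1 month RNA a pool, whereas the sample labels number 9 mice, so it was taken as 1 control sample. With no dye swap, an age set against 1 month cannot be told apart from Cy3 set against Cy5. Values are log2 ratios of the older mouse over the reference, and a ratio above 0 means a higher signal in the older mouse. The suspension was strained, washed free of fat cells and cleared of red cells by lysis, so that it holds every thymocyte stage and any other cells left. In such bulk RNA, fewer cycling cells and less mRNA per cycling cell cannot be told apart.

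The scanner software placed 79.6% to 94.2% of the spots well above background in Cy3, fewest on 24 month replicate 2, and 90.5% to 95.4% in Cy5. All 10 thymocyte markers with a probe, such as the T cell receptor and co-receptor genes, passed that mark in Cy3 on each of the 9 arrays. Markers of other cells were measured as well. The mean log2 ratio of 6 B and plasma cell markers was between 0.04 and 0.18 on the 6 month arrays. It was between 0.50 and 1.00 on the 16 month arrays and 0.28 and 0.82 on the 24 month arrays. These genes did not move alike. Against 6 months, their differences ran from 0.05 to 1.99 at 16 months (median 0.48) and from -0.02 to 2.02 at 24 months (median 0.22). The mean of 4 macrophage markers was between -0.23 and -0.08, 0.33 and 0.92, and 0.08 and 0.86 at 6, 16 and 24 months. That of 4 NK cell markers lay between 0.19 and 0.90 over the 9 arrays. Markers of thymic epithelium had means between -1.54 and -0.14. By limma, 4, 3 and 2 of their 5 tested genes were called lower than the 1 month reference at 6, 16 and 24 months. Granulocyte markers are given further below. The part of these cells in the results was not tested.

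A cell prepares to copy its DNA in G1, when the MCM helicase is loaded at origins. It then fires them in S phase with the help of Cdc45, a step that cyclin-dependent kinases drive. After replication, cyclin B and its kinase bring about mitosis, in which the spindle checkpoint holds back anaphase until every chromosome is attached. Transcription of the S phase genes is known to depend on E2F factors, while many mitotic genes are controlled through CHR and CCAAT elements. In the thymus, most division takes place among immature cells before they become small resting double-positive cells.

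The promoters of 5 members on which the results below turn are shown, so that the elements of the 2 classes can be read beside them. Each covers 250 bases before and 50 bases after the start site in RefSeq's table for build GRCm38.p6, and capitals mark matches on either strand to TTTNNCGC (an E2F site), TTTGAA (a CHR) or CCAAT. Pola1 (chrX:93632106-93632405, minus strand) and Mcm6 (chr1:128359656-128359955, minus strand) are S phase genes. Bub1b (chr2:118597961-118598260, plus strand), Cenpa (chr5:30666636-30666935, plus strand) and Ccnb1 (chr13:100786437-100786736, minus strand) are mitotic genes.
Pola1: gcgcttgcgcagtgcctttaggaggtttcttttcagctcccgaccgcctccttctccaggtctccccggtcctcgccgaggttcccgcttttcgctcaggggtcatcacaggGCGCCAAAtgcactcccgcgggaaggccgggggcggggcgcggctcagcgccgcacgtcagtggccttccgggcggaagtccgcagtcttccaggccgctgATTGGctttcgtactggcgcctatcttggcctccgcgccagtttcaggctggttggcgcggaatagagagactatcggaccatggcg
Mcm6: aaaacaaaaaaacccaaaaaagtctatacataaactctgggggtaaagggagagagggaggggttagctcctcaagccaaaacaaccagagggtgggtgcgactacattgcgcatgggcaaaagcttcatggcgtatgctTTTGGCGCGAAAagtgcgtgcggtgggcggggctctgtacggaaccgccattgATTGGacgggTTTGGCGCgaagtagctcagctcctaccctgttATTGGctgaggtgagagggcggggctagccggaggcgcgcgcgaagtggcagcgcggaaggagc
Bub1b: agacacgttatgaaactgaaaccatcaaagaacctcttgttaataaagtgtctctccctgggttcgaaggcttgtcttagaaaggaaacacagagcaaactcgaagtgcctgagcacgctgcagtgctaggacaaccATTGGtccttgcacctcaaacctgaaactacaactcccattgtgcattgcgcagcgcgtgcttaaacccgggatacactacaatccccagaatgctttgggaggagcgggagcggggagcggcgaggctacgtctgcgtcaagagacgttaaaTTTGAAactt
Cenpa: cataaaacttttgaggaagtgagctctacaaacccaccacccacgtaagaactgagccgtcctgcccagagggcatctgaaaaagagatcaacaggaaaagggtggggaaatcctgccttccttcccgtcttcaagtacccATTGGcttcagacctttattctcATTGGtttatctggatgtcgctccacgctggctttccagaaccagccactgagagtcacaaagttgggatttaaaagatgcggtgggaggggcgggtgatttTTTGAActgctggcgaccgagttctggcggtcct
Ccnb1: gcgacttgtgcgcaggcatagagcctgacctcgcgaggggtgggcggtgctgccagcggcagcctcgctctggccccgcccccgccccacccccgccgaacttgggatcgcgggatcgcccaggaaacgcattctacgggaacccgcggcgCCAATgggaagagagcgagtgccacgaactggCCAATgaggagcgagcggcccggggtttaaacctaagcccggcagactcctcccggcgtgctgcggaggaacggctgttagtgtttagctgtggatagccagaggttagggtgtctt

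A promoter of 300 bases was available for 35 of the 41 listed genes. The E2F letters were present in 10 of 20 S phase genes (50%) and 1 of 15 mitotic genes (6.67%), against 5.93% of all 27025 genes with a promoter. The CHR letters were present in 3 of 20 S phase genes (15%) and 9 of 15 mitotic genes (60%), against 20.2% of all genes. CCAAT was found in 65% of the S phase and 86.7% of the mitotic genes, against 41.1% of all genes. In the sequences above, Pola1 and Mcm6 hold E2F letters, and in the first capital run of Mcm6 a match on each strand overlaps the other. Bub1b and Cenpa hold 1 CHR each, and Ccnb1 holds 2 CCAAT matches and no CHR letters in this window. A match describes letters and does not show that a factor binds.

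No replication or mitosis gene passed a test between 6, 16 and 24 months, in either class. With limma and Benjamini-Hochberg adjustment, 0 of 33 members passed an adjusted p of 0.05 at 16 against 6 months, at 24 against 6 months or at 24 against 16 months. The background was 0% of the 37442 probes in each of these comparisons. At an unadjusted p under 0.05 there were likewise 0 members in each, against 6.38%, 9.11% and 4.77% of all probes. The median difference over the members was 0.05 at 16 against 6 months, -0.03 at 24 against 6 months and -0.07 at 24 against 16 months, and over all probes it was 0.01, -0.02 and -0.02. With normexp and median centring, the members' medians were 0.06, -0.33 and -0.33. Leaving out 1 array, they ran from -0.09 (without 16 month replicate 2) to 0.16 (without 16 month replicate 1), from -0.13 (without 24 month replicate 2) to 0.07 (without 24 month replicate 1) and from -0.18 (without 24 month replicate 2) to 0.08 (without 16 month replicate 2), so that none kept its sign. The S phase genes had medians of 0.07, -0.03 and -0.07 and the mitotic genes of 0.03, -0.01 and -0.06. The F test for any difference among the ages gave 0 of 33 members at an unadjusted p under 0.05, against 2488 of all 37442 probes, and 0 of either after adjustment.

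The precision of these differences was limited by the spread between arrays of an age. Each array held the RNA of a different older mouse, so that spread between mice and between arrays cannot be told apart. The 95% interval of a member's difference between ages reached, at the median, 0.38 to either side on the log2 scale, against 0.29 for all probes. Within an age, the SD between arrays was 0.22 for the median member and 0.16 for the median probe. Differences smaller than these intervals were not detectable with 3 arrays per age, and larger ones could be missed as well. The intervals are not adjusted for the number of probes, whereas the calls are. At 16 against 6 months no probe was called, though estimates reached 3.57 in size. The plot of age differences shows the interval of every member, and each interval includes 0.

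**Figure D1:**
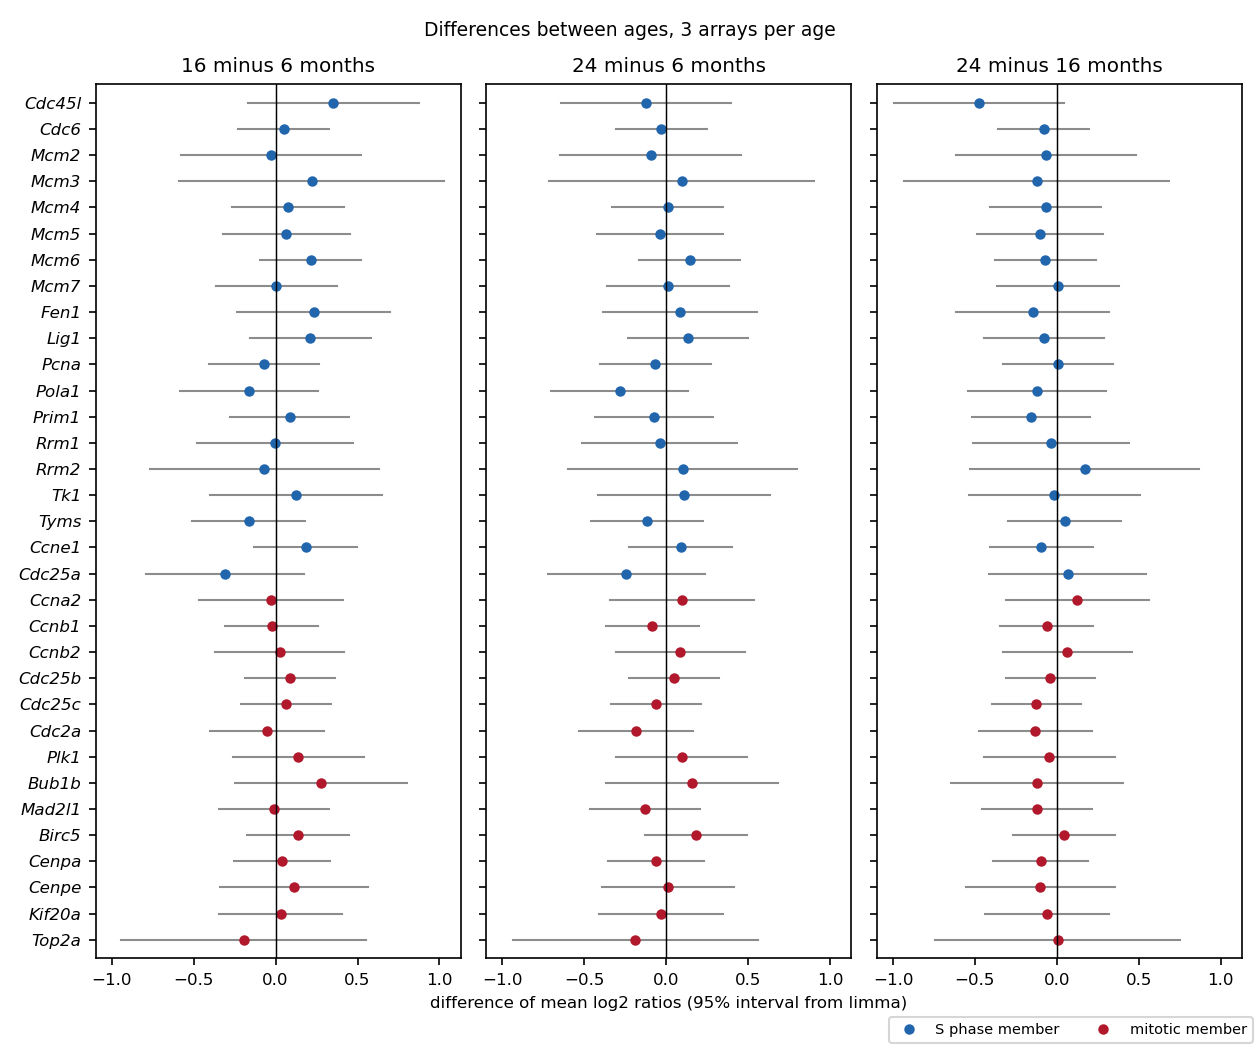
Difference of the mean log2 ratio between ages for each of 33 members, with the 95% interval from limma (3 arrays per age; 2 for Cenpe at 16 months). Blue points are S phase and red points mitotic genes, ordered by role. The estimates lie between -0.48 and 0.35, and every interval includes 0.

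Origin licensing and helicase genes were the largest role, with 8 members. Cdc45l, the former symbol of Cdc45, a part of the active helicase, had the smallest F test p of all members (0.154, adjusted p = 0.737 by limma). Its log2 ratios were 0.70, 0.34 and 0.15 at 6 months, 0.83, 1.03 and 0.39 at 16 months and 0.06, 0.12 and 0.64 at 24 months. The 16 month arrays lay highest on average, but 16 month replicate 3 fell inside the range of both other ages. Its difference was 0.35 at 16 against 6 months (95% interval -0.17 to 0.87) and -0.48 at 24 against 16 months (95% interval -0.996 to 0.05). Mcm6, a subunit of the helicase ring, was the only member whose arrays did not overlap between 2 ages. It had -0.01, 0.40 and 0.05 at 16 months, against -0.03, -0.06 and -0.11 at 6 months, a difference of 0.21 (95% interval -0.09 to 0.52, adjusted p = 0.790 by limma). Such a separation upward was found for 7.26% of all probes in that comparison, and for 1 of 33 members. No member's arrays separated in any other way between ages, against 6.69% of all probes separated downward at 16 against 6 months, 5.91% upward and 10.1% downward at 24 against 6 months, and 4.35% upward and 6.41% downward at 24 against 16 months.

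Mcm3, another subunit of the ring, had the widest spread of all members, with a pooled SD of 0.49 within an age. It read 1.03, 0.68 and 0.02 at 6 months, 0.22, 1.42 and 0.74 at 16 months and 0.51, 1.00 and 0.50 at 24 months, and the 3 ages overlapped. Mcm2 read 0.29, 0.18 and 0.07, -0.36, 0.57 and 0.25 and -0.03, 0.43 and -0.14 at the same ages. The lowest and the highest of its 9 values both came from 16 month mice. Mcm4, Mcm5, Mcm7 and Cdc6, the factor that loads the ring, had age means between -0.31 and 0.19. The smallest F test p among these 4 genes was 0.807.

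Among the genes of the replication fork, Pola1 encodes the catalytic subunit of the polymerase that starts each new strand. Its log2 ratios were -0.34, -0.31 and -0.15 at 6 months, -0.81, -0.12 and -0.35 at 16 months and -0.76, -0.33 and -0.55 at 24 months. All 9 lay below 0, and the ages overlapped. Lig1, the ligase that joins lagging strand fragments, read 0.15, 0.05 and -0.09, 0.12, 0.59 and 0.04 and 0.01, 0.35 and 0.16, where the highest value was that of 16 month replicate 2. The sliding clamp gene Pcna and the primase gene Prim1 had age means between -0.26 and -0.03, and the Pcna spot was saturated on 1 array.

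The genes of nucleotide supply are Rrm1 and Rrm2, which form ribonucleotide reductase, the thymidine kinase Tk1 and the thymidylate synthase Tyms. Rrm2 read 0.50, 0.31 and 0.12 at 6 months, -0.38, 0.58 and 0.52 at 16 months and 0.31, 0.90 and 0.02 at 24 months. Tk1 read 0.34, 0.34 and 0.07, -0.07, 0.80 and 0.38 and 0.16, 0.67 and 0.24. For both, the lowest value came from 16 month replicate 1, and the highest from 24 month replicate 2 for Rrm2 and 16 month replicate 2 for Tk1. The difference at 24 against 6 months was 0.10 for Rrm2 and 0.11 for Tk1, and the smallest p of the 4 genes in that comparison was 0.454 (limma, unadjusted).

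The genes of entry into S phase were Ccne1, the cyclin E1 gene, and Cdc25a, a phosphatase that activates cyclin-dependent kinases. Cdc25a read 0.67, 0.43 and 0.25 at 6 months, -0.24, 0.23 and 0.44 at 16 months and 0.25, 0.46 and -0.08 at 24 months. The 3 values at 6 months were all above 0 while each later age held 1 value below 0, and the ages overlapped. The difference was -0.31 at 16 against 6 months (95% interval -0.79 to 0.17) and -0.24 at 24 against 6 months (95% interval -0.72 to 0.24). Ccne1 read 0.05, -0.09 and -0.07 at 6 months, -0.0045, 0.41 and 0.03 at 16 months and -0.11, 0.26 and -0.0024 at 24 months. On this brighter probe its means at these ages were -0.04, 0.14 and 0.05, with SDs of 0.07, 0.23 and 0.19. A second probe of Ccne1 had means of 0.09, 0.06 and 0.08, so that the sign at 6 months depends on the probe.

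Among the mitotic kinase and cyclin genes, Cdc2a is the former symbol of Cdk1, the kinase that cyclin B activates. Its brighter probe read 0.26, 0.32 and 0.11 at 6 months, 0.04, 0.46 and 0.03 at 16 months and -0.20, 0.18 and 0.16 at 24 months. The only value below 0 was that of 24 month replicate 1. A second probe of the gene did not follow it, with -0.87 on 24 month replicate 2 where the brighter one had 0.18. That second probe was well above background in Cy3 on 8 of the 9 arrays, and its other values at 24 months were -0.25 and -0.08. Plk1, a kinase of mitotic entry and spindle assembly, read 0.13, 0.10 and 0.03, -0.01, 0.54 and 0.16 and 0.01, 0.51 and 0.04, with replicate 2 the highest at both later ages. Ccna2, Ccnb2 and Cdc25c had age means between -0.23 and 0.11 and overlapped at all ages.

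The chromosome and spindle genes gave the same picture. Birc5, the survivin subunit of the chromosomal passenger complex, read -0.09, -0.18 and -0.08 at 6 months, -0.03, 0.24 and -0.15 at 16 months and -0.15, 0.29 and 0.05 at 24 months, a difference of 0.18 at 24 against 6 months (95% interval -0.13 to 0.49). Top2a, the topoisomerase that untangles sister chromatids, read 0.95, 0.72 and 0.31, -0.07, 0.84 and 0.62 and 0.29, 1.07 and 0.06 on its brighter probe, whereas its second probe stayed between -0.29 and -0.01 on all arrays. The level of Top2a against the 1 month reference therefore depends on the probe. Cenpe, a kinesin that attaches chromosomes to the spindle, had means of 0.23, 0.35 and 0.24 at 6, 16 and 24 months, with no value on 16 month replicate 3, where its spot was marked as an outlier. The kinesin gene Kif20a had age means between -0.26 and -0.20, and the checkpoint gene Mad2l1 between -0.14 and -0.01.

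**Figure D2:**
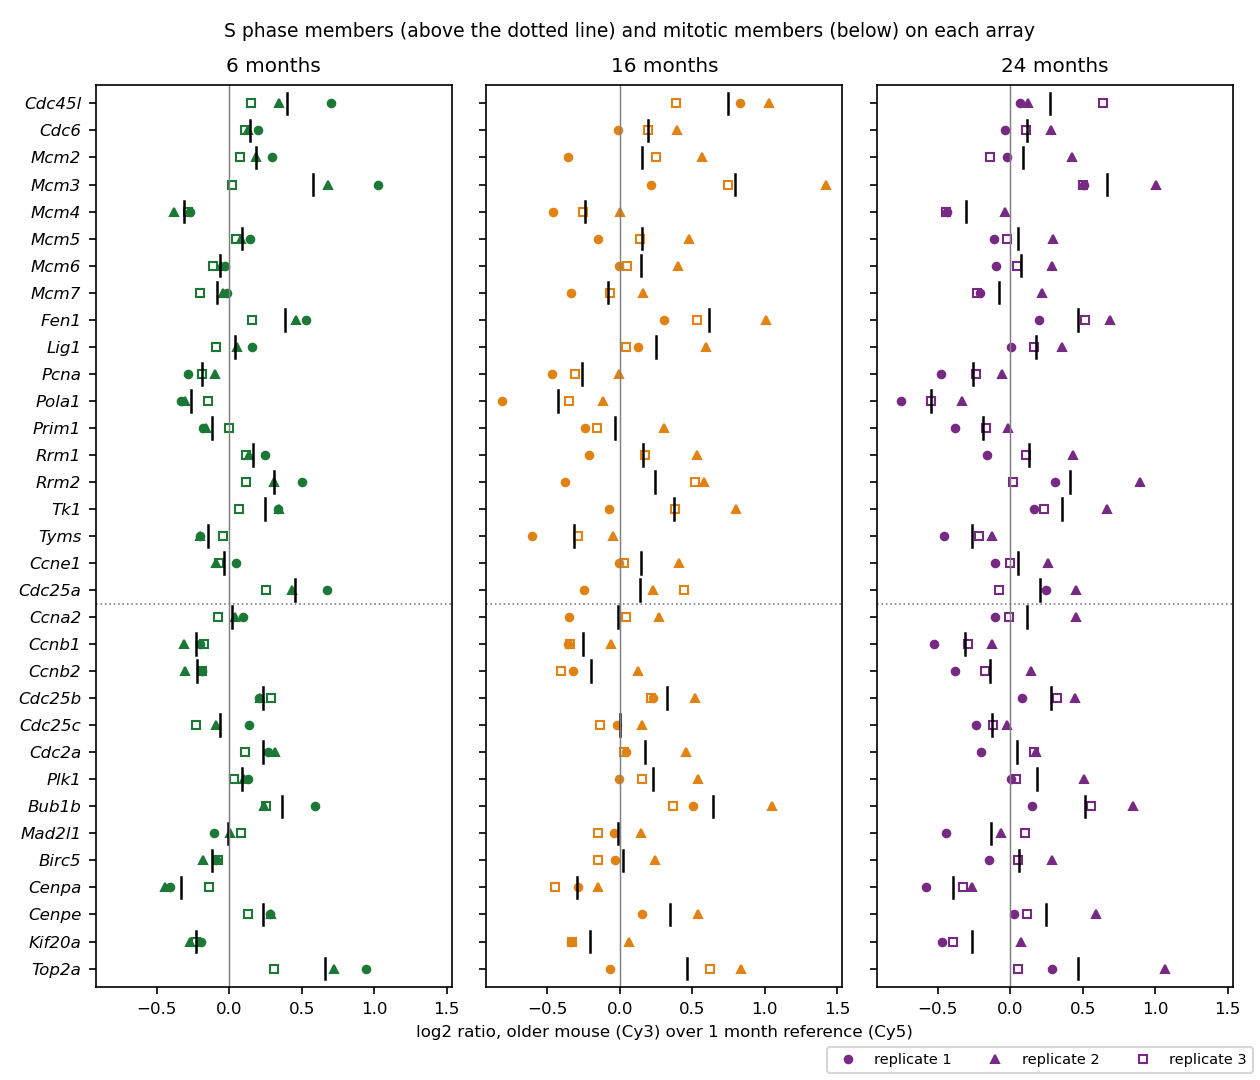
Log2 ratio of the older mouse over the 1 month reference for each of 33 members on each array, 1 panel per age. Circles, triangles and open squares are replicates 1, 2 and 3 and vertical bars the age mean (3 arrays; 2 for Cenpe at 16 months); S phase genes stand above the dotted line. At 16 and 24 months the triangles lie right of the circles for all 33 genes.

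The plot of members by array shows shifts between arrays of 1 age that were shared by nearly all members. The median of the 33 members was 0.13, 0.05 and 0.02 at 6 months, -0.07, 0.40 and 0.04 at 16 months and -0.11, 0.29 and 0.02 at 24 months. On 16 month replicate 2, 32 of 33 members were above their own median over the 9 arrays, and on 24 month replicate 2 it was 31 of 33. On 16 month replicate 1 only 4 and on 24 month replicate 1 0 of 33 were above it. The share of all tested probes above their own median was between 38.6% and 53.4% on the 9 arrays. The 6 month arrays had 22, 10 and 10 members above.

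Replicate 2 exceeded replicate 1 for all 33 members at 16 months, by a median of 0.47 (range 0.14 to 1.21), and for all 33 at 24 months, by a median of 0.42 (range 0.05 to 0.78). These 2 pairs of mice were singled out after their values had been seen, and no test was made. Of all tested probes, 49.4% at 16 months and 44.3% at 24 months were higher on replicate 2. The 2 channels took different parts in the gap. At 16 months the Cy3 level of a member, less the median of its array, was higher on replicate 2 for 33 of 33 members by a median of 0.65, and the Cy5 level, from 1 month RNA, was higher for 30 by a median of 0.18. At 24 months the Cy3 level was higher on replicate 2 for 29 members by a median of 0.19, while the Cy5 level was lower for 28, with a median of -0.32. The larger part of the gap at 24 months thus lay in the channel of the 1 month reference. The dye normalization acts on both channels, so that its part in this division was not tested.

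The gap ran through both classes. The median of the S phase genes was 0.15, 0.08 and 0.02 at 6 months, -0.22, 0.41 and 0.14 at 16 months and -0.10, 0.29 and -0.0024 at 24 months and that of the mitotic genes 0.11, 0.02 and -0.02 at 6 months, -0.04, 0.26 and -0.14 at 16 months and -0.17, 0.23 and 0.04 at 24 months. The S phase median minus the mitotic median averaged 0.05 ± 0.01 at 6 months, 0.08 ± 0.24 at 16 months and 0.03 ± 0.06 at 24 months (SD, n = 3 arrays each). At 16 months it was -0.18, 0.15 and 0.28 on the 3 arrays, so that its sign differed between arrays of one age. In the Cy3 channel itself, the median log2 level of the S phase members less the median of the array spread over 0.66 across the older mice, and in the Cy5 channel, which carries 1 month RNA, over 0.37. For the mitotic members these ranges were 0.50 and 0.41.

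**Figure D3:**
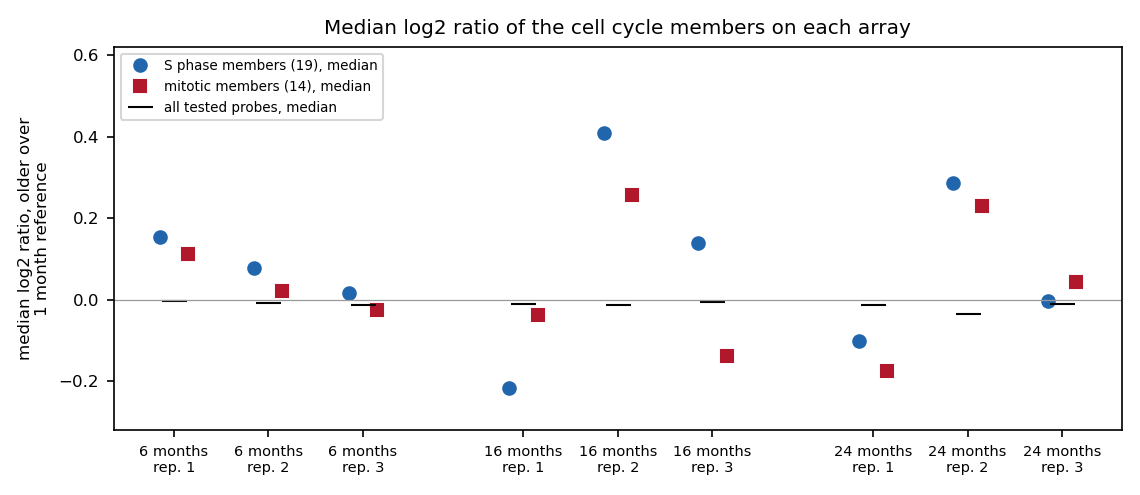
Median log2 ratio of the 19 S phase genes (blue circles) and 14 mitotic genes (red squares) on each of the 9 arrays, with the median of all tested probes as a black dash. Both classes are highest on replicate 2 at 16 and at 24 months, while the median of all probes stays between -0.035 and -0.0034.

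Other measures also differed between these arrays. The mean log2 ratio of 8 haemoglobin probes was -1.08, -1.01 and -0.66 at 6 months, 0.97, 0.56 and -0.40 at 16 months and -0.94, 0.15 and 0.67 at 24 months, with the highest value on 16 month replicate 1, where the members were low. The median of the raw Cy3 signal above background was 61.2 on 24 month replicate 2 and 175 on 6 month replicate 1, the extremes of the 9 arrays. The mean log2 ratio of the 4 early progenitor markers with a tested probe was 0.28, 0.11 and -0.15 at 6 months. It was 0.02, 0.32 and 0.02 at 16 months and 0.11, 0.56 and 0.11 at 24 months. These markers did not move alike, with differences from -0.35 to 0.99 at 24 against 16 months (median -0.04). The mean log2 ratio of the 4 granulocyte markers was 1.97 on 16 month replicate 2 and between -3.24 and -0.77 on the other arrays. The part of these in the members' shift was not tested.

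The normalization between dyes bears on this pattern. With normexp background correction and loess, the member medians stayed close to those above, at 0.14, 0.04 and -0.01 at 6 months, -0.07, 0.39 and 0.04 at 16 months and -0.11, 0.26 and 0.01 at 24 months. With normexp and only a median centring of each array, they were 0.03, -0.67 and -0.78 at 6 months, -0.55, -0.16 and -0.48 at 16 months and -0.84, -1.003 and -0.54 at 24 months, while the median of all tested probes lay between -0.12 and -0.02. Under that setting 16 month replicate 2 was still the highest of its age, but 24 month replicate 2 was the lowest of all arrays. The higher level of the members on 24 month replicate 2 thus reversed without an intensity-dependent dye correction.

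**Figure D4:**
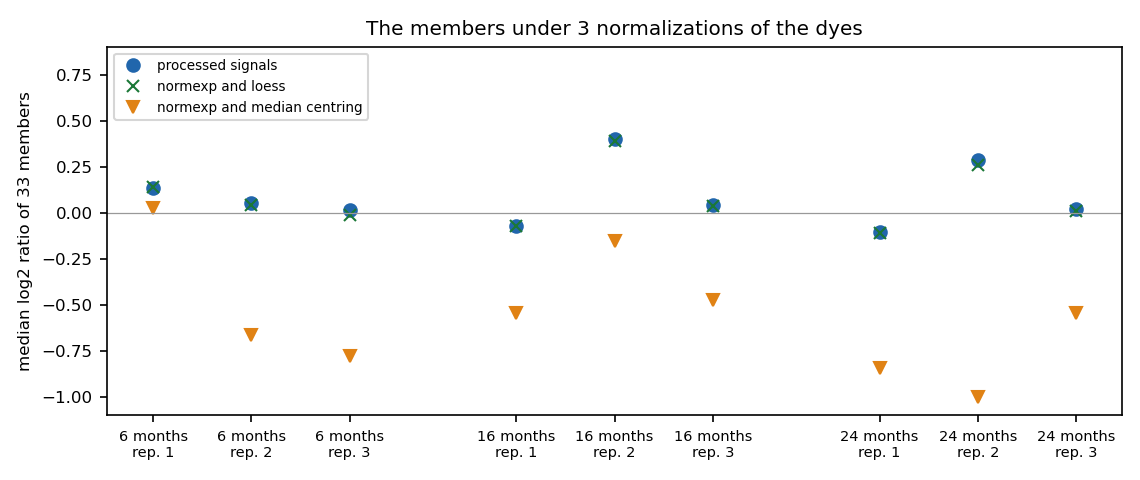
Median log2 ratio of the 33 members on each array under 3 ways of normalizing the dyes: the scanner software's processed signals (circles), normexp and loess (crosses), and normexp with median centring (triangles). Circles and crosses nearly coincide, and median centring places 24 month replicate 2 at -1.003.

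Against the 1 month reference, few members passed the test. At 6 months 1 of 33 members was called by limma at an adjusted p under 0.05, against 12.4% of all probes (7.62% higher and 4.76% lower). At 16 months it was 4 of 33, against 18% of all probes, and at 24 months 6 of 33, against 24.9%. The 4 calls at 16 months were all higher than the reference (11.4% of all probes were called higher and 6.59% lower), and those at 24 months were 3 higher and 3 lower (11.6% and 13.3% of all probes). At an unadjusted p under 0.05, 9, 10 and 10 members passed at 6, 16 and 24 months, against 31.1%, 34% and 40.4% of all probes. The median log2 ratio of the members was 0.04, 0.15 and 0.08, against -0.01, -0.01 and -0.02 for all probes. Both the counts and their direction changed with the scaling. At 16 months 5 members were called higher and 4 lower with loess (27.3% called, against 24.4% of all probes), 3 and 6 with the authors' scores (27.3% against 20.3%) and 1 and 14 with median centring (45.5% against 44.5%). At 24 months the calls were 1 higher and 3 lower with loess (12.1% against 21.5%), 0 and 7 with the scores (21.2% against 28%) and 0 and 25 with median centring (75.8% against 70.9%). At 6 months they were 0 and 1 with loess (3.03% against 16.6%), 0 and 3 with the scores (9.09% against 14.1%) and 1 and 18 with median centring (57.6% against 52.4%). The members' share was thus below that of all probes under some scalings and above it under others. By direction, median centring called 24.6%, 18.4% and 31.3% of all probes higher at 6, 16 and 24 months, and 27.9%, 26.1% and 39.6% lower. Loess called 8.94%, 13% and 9.92% higher and 7.67%, 11.4% and 11.5% lower. The scores called 6.61%, 9.29% and 11.1% higher and 7.45%, 11% and 16.9% lower. With median centring, the members' calls were thus more on the lower side than those of all probes. All probes are not matched to the members in brightness. In Cy3 the median S phase member lay 3.21 to 3.87 above the array median on the log2 scale, and the median mitotic member 2.03 to 2.54. Whether other probes as bright were also called lower under this setting was not tested. With median centring, the median member was below 0 on 8 of the 9 arrays.

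The genes higher than the reference were Bub1b, Fen1, Cdc25b and Cdc45l. Bub1b encodes BubR1, the checkpoint protein that restrains anaphase. Its log2 ratios were 0.59, 0.24 and 0.25 at 6 months, 0.51, 1.05 and 0.36 at 16 months and 0.15, 0.85 and 0.55 at 24 months, all 9 above 0. By limma its mean was 0.64 (SE 0.16, adjusted p = 0.0311) at 16 months and 0.52 (SE 0.16, adjusted p = 0.0496) at 24 months, while 0.36 at 6 months did not pass. The call at 16 months ended without 16 month replicate 2 (adjusted p = 0.178) as it did without replicate 1 or 3 of that age or 6 month replicate 2, and the call at 24 months ended without any of 8 of the 9 arrays. With median centring, Bub1b stood at -0.08 at 24 months.

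Fen1, the nuclease that trims lagging strand fragments, read 0.53, 0.46 and 0.16 at 6 months, 0.31, 1.01 and 0.53 at 16 months and 0.19, 0.69 and 0.52 at 24 months. All of its values were above 0, with 16 month replicate 2 the highest. Its mean was 0.61 (SE 0.14, adjusted p = 0.0248) at 16 months and 0.47 (SE 0.14, adjusted p = 0.0487) at 24 months by limma. Without 16 month replicate 2 or 3 the adjusted p at 16 months was 0.139 or 0.0740. The call at 24 months ended without any of 7 of the 9 arrays, with adjusted p up to 0.207, and the mean was -0.07 with median centring. With loess, the adjusted p at 24 months was 0.0582 for Fen1 and 0.0604 for Bub1b.

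Cdc25b, a phosphatase that activates Cdk1 at mitotic entry, read 0.21, 0.21 and 0.29 at 6 months, 0.23, 0.52 and 0.22 at 16 months and 0.08, 0.45 and 0.32 at 24 months. Its means of 0.32 (SE 0.08, adjusted p = 0.0345) at 16 months and 0.28 (SE 0.08, adjusted p = 0.0428) at 24 months passed limma's test, but they turned to -0.13 and -0.43 with median centring. Without 16 month replicate 1, 2 or 3 the adjusted p at 16 months was 0.0711, 0.201 or 0.0693, without 6 month replicate 2 it was 0.0600, and the call at 24 months ended without any of 7 of the 9 arrays, with adjusted p up to 0.191. Cdc45l, with values given above, passed at 16 months only (0.75, SE 0.16, adjusted p = 0.0184 by limma), and no longer did so without 16 month replicate 1 (adjusted p = 0.0760) or 2 (0.122). That its level against the reference differed between 16 months and the other ages was not shown by the tests between ages.

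The genes lower than the reference were Cenpa, Pola1 and Ccnb1. Cenpa encodes the histone H3 variant that marks centromeres. It read -0.41, -0.44 and -0.14 at 6 months, -0.29, -0.15 and -0.45 at 16 months and -0.59, -0.27 and -0.33 at 24 months, all 9 below 0. Its mean was -0.33 (SE 0.09, adjusted p = 0.0490) at 6 months and -0.39 (SE 0.09, adjusted p = 0.0194) at 24 months by limma. The call at 6 months ended without any of 8 of the 9 arrays, with adjusted p up to 0.238, and the call at 24 months ended without 24 month replicate 1 (adjusted p = 0.0954). The value of -0.29 at 16 months did not pass.

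Pola1, whose 9 values are given above, had a mean of -0.55 (SE 0.13, adjusted p = 0.0215 by limma) at 24 months. It no longer passed without 24 month replicate 1 (adjusted p = 0.105) or 3 (0.0631). Ccnb1, the cyclin B1 gene, read -0.20, -0.31 and -0.17 at 6 months, -0.36, -0.06 and -0.34 at 16 months and -0.52, -0.13 and -0.29 at 24 months. Its mean was -0.32 at 24 months (SE 0.09, adjusted p = 0.0348 by limma). Without 24 month replicate 1 the mean was -0.21 (adjusted p = 0.162), and without replicate 3 it was -0.33 (adjusted p = 0.0850). Without 6 month replicate 2 the mean did not change, but the adjusted p was 0.0540. The direction of Cenpa, Pola1 and Ccnb1 was the same with loess and with median centring. Each of the 11 calls above was lost when only the arrays of the age in question entered the fit. In those fits 3.02%, 9.45% and 0% of all probes were called at 6, 16 and 24 months. At 24 months the loss is thus not particular to these genes.

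The direction against the reference was mixed in both classes. All 3 ratios of an age lay above 0 for 16, 7 and 11 members at 6, 16 and 24 months, against 26.7%, 28.7% and 25.4% of all probes. They lay below 0 for 12, 5 and 8 members, against 30.5%, 30.2% and 30.6% of all probes. At 6 months both classes held such genes, 10 S phase and 6 mitotic genes above 0 and 7 and 5 below 0. Among the ring subunits the direction was mixed, since Mcm3 had all 9 values above 0 and Mcm4 had 8 of 9 below 0. At no age did a ring subunit pass the test against the reference.

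Of the 8 genes reached through probe descriptions, 0 passed between ages. Bub1, a kinase of the spindle checkpoint, had an unadjusted F test p of 0.0384 and an adjusted p of 0.731 by limma. It read 0.20, 0.17 and 0.08 at 24 months, against -0.20, -0.08 and -0.01 at 6 months, where the arrays did not overlap, as for 5.91% of all probes in this direction. The difference was 0.24 (95% interval 0.07 to 0.42, adjusted p = 0.495). A proliferation marker, Mki67, read 0.37, 0.09 and 0.08 at 6 months, -0.26, 0.66 and 0.11 at 16 months and 0.07, 0.67 and 0.08 at 24 months on its brighter probe, with the highest values on replicate 2 of both later ages. Ccne2, the cyclin E2 gene, was the only one of the 8 called against the reference, at 24 months (-0.33, SE 0.09, adjusted p = 0.0372 by limma), while its second probe, at -0.18, did not pass. Aurkb, the kinase of the passenger complex, stood at -0.40 at 6 months (adjusted p = 0.0533) and -0.35 at 24 months (adjusted p = 0.0527), and the anaphase activator Cdc20 at -0.28, -0.21 and -0.20 at 6, 16 and 24 months, none of them past the threshold.

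Further genes of the same processes were taken from 3 lists. Of 36 other replication genes 27 were tested, of 22 genes of G1 and E2F control 17, and of 48 other mitotic genes 27, and 0 passed between any 2 ages in each list. At 24 months, 2 other replication genes were called higher than the reference and 9 lower, and for G1 and E2F genes the counts were 5 and 2, for other mitotic genes 3 and 3, against 11.6% and 13.3% of all probes. At 16 months the counts were 4 and 6, 6 and 0, and 4 and 2, against 11.4% and 6.59% of all probes. At 6 months they were 2 and 1, 3 and 0, and 2 and 1, against 7.62% and 4.76%. Of 45 named calls in 23 of these genes, 9 held on leaving out any 1 array.

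Those 9 calls concern 6 genes, most of which are described here. Rpa2, a subunit of the single-strand binding protein RPA, was higher at 16 months (0.58, SE 0.07, adjusted p = 0.00324) and 24 months (0.38, SE 0.07, adjusted p = 0.0104, but -0.27 with median centring). Orc4, a subunit of the origin recognition complex, was lower at 16 months (-0.54, SE 0.08, adjusted p = 0.00498) and 24 months (-0.51, SE 0.08, adjusted p = 0.00577). Ccnd3, a D cyclin of early thymocyte expansion, was higher at 24 months (0.89, SE 0.16, adjusted p = 0.00897, but -0.04 with median centring). Racgap1, which acts in cytokinesis, was higher at 16 and 24 months (0.66 and 0.67, SE 0.10, adjusted p = 0.00525 and 0.00481), and Ect2, its partner in cytokinesis, was lower at 24 months (-0.63, SE 0.10, adjusted p = 0.00669). At 6 months Rpa2 (0.51), Ccnd3 (0.90), Racgap1 (0.61) and Ect2 (-0.48) were also called, with adjusted p of 0.00805, 0.0153, 0.0107 and 0.0260. Each of these 6 month calls ended without 6 month replicate 2. At 16 months Ccnd3 (0.78, adjusted p = 0.0151) and Ect2 (-0.51, adjusted p = 0.0143) were called as well, though not without 16 month replicate 3. Orc4 read -0.34, -0.22 and -0.03 at 6 months. These adjusted p are limma's over all probes. The direction of the Orc4, Racgap1 and Ect2 calls held with median centring.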

How the data were processed

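The scanner files hold intensity values per spot as deposited by the authors. Per the file headers, Agilent Feature Extraction 7.5.1 (7.1 per the submitters' processing notes) subtracted the local background and a spatial trend and normalized the dyes by LOWESS (smooth factor 0.25), giving the processed signals. A curve fitted per array can take up a shared shift of bright genes. A further deposited table holds the authors' score for each channel. It was checked to be log10 of the processed signal, centred and scaled to unit SD within the channel (r = 1 throughout). Both samples of an array carry 1 identical file on all 9 arrays, and 0 columns were left unmapped. The genome build used to design the probes is not given in the sources used here.

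Log2 ratios of Cy3 over Cy5 processed signals were taken, outlier spots dropped (34 to 52 per array, 159 and 179 on 24 month replicates 1 and 3) and repeat spots averaged. A probe was tested if the software marked it above background in Cy3 for every mouse of an age or in Cy5 on all 9 arrays, with a value on at least 7 arrays. Of several probes of a gene, the brightest was used. The 37442 probes were fitted with limma 3.58.1 (R 4.3.3), with 1 mean for each age over the 9 arrays and moderated variances (1.94 prior and 6 residual degrees of freedom). Calls are two-sided at a Benjamini-Hochberg adjusted p of 0.05 over all probes. If the reference was a pool, tests against it hold no spread among 1 month mice. Python 3.11.15, pandas 2.3.3, numpy 2.4.6 and matplotlib 3.10.9 were used for tables and figures. The labels describe each older sample as a separate mouse. Same-numbered arrays of different ages had deviations from their age means that correlated between -0.31 and 0.10. For differently numbered arrays of different ages the correlations ran from -0.26 to 0.33. The numbers were therefore not used as pairs in the main fit, though such correlations cannot show that the numbers share nothing. The model was tested on simulated data for 24 against 6 months with 200 of 37442 probes changed: it called 69% of those changed by 1 on the log2 scale and 89% of those changed by 2, with 4.82% of its calls false. The simulated noise was independent between probes and arrays. These rates therefore do not cover shifts of an array that many genes share, such as those of the members.

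The members, the lists and the tests were chosen with earlier results of these data known. Values on every array were given for members past the threshold, for the 8 with the smallest F test p where none passed between ages, and for others shown as examples of their role, which were chosen after their values were seen. From the 3 lists of further genes, up to 4 rises and 4 falls per comparison with 3 ratios of one sign were taken. The genes printed were narrowed to those with a call that held without any 1 array. Promoters are RefSeq's, matched by gene symbol. Alternatives were normexp with loess or median centring, the authors' scores, other filters, the median over a gene's probes, a replicate block, leaving out arrays, and fits to only the ages compared. The values of one further gene of these lists are not reported here.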

Additional observations from a re-analysis of the deposited data

Results flagged for a closer look

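In the Cy5 channel, which carries 1 month RNA on every array, the median log2 level of the 14 mitotic members less the median of the array was 2.49 on the array of 16 month replicate 3 and between 2.08 and 2.26 on the other 8. The gap to the nearest other array was 0.553 of the whole range of the 9 arrays, above the limit of Dixon's test for an outlying value, which about 1 in 20 groups pass by chance. On the same array the mitotic members had a median log2 ratio of -0.14, and the S phase members of 0.14.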

How the results depend on the processing

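Between ages, 0 members were called under all alternatives run. Calls against the 1 month reference depended on the settings. At 6 months, where 1 member was called, the count was 19 with median centring (12.4% of all probes called as reported, 52.4% under this setting), 3 with the authors' scores (14.1%), and 0 without the filter on dim probes (9.73%), with the replicate block (6.48%) or with only the arrays of that age (3.02%). At 16 months, where 4 were called, it was 9 with loess (24.4% of all probes), 15 with median centring (44.5%), 9 with the scores (20.3%), 7 with the filter on both channels (23.1%) and 0 with only the arrays of that age (9.45%). At 24 months, where 6 were called, it was 25 with median centring (70.9%) and 0 with only the arrays of that age (0%). Leaving out 1 array gave 0 to 2, 0 to 5 and 1 to 6 calls at the 3 ages. The share of all probes called then ran from 0.801% to 14.5%, 3.31% to 20.7% and 9.37% to 23.3%. The count was 0 at 16 months without 16 month replicate 2 (3.31% of all probes). It was 1 at 24 months without 24 month replicate 1 (9.37%) or 3 (18.8%). Calls over all probes at 6 months ran from 300 to 19627 across settings. Median centring reversed Cdc25b (-0.13 at 16 months, -0.43 at 24 months), Bub1b (-0.076 at 24 months) and Fen1 (-0.069 at 24 months). The S phase median minus the mitotic median at 6 months was 0.035 with loess, -0.022 with median centring, 0.028 in scores, 0.066 without saturated probes and 0.060 over the median of a gene's probes, and at 24 months -0.072 with median centring. Leaving out 1 array it lay between 0.04 and 0.05, -0.01 and 0.21, and 0.0047 and 0.06 at the 3 ages. The causes were not tested, save that fits to 1 age hold fewer arrays. The scan day as a block was not run, since the headers give 1 extraction day and no scan day. The number of arrays limits what could be detected.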
